A study of Mus musculus with 9 samples.

Results

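The genes described here carry signals of the transforming growth factor beta (TGF-beta) family in muscle: myostatin, the activin receptors Acvr1b and Acvr2b, the bone morphogenetic proteins (BMPs) Bmp4 and Bmp6, the inhibitory SMADs Smad6 and Smad7, and the BMP targets Id1, Id2 and Id3. They were defined by a list of 10 gene symbols matched to the platform's annotation of probe sets, and the list was selected on expression values of these same arrays, so that their differences between groups are given below as a description, without a p value. Of the 10 genes, 9 were read by 15 probe sets that named them alone, and each of the 9 had a probe set above the filter on dim values, among 9697 genes that passed it. Mstn, the gene of myostatin, was not analysed here, because no probe set was assigned to it in the annotation used.

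Expression was measured in a thigh muscle, the quadriceps femoris, of 9 female mice whose strain is labelled C57Bl/6 HT transgenic, 1 array per sample and 3 samples per group. The study induced a self MHC class I protein in skeletal muscle by withdrawing doxycycline, at a younger or an older age. Late mice came off the drug at 35 days of age and were killed at 50 days, 15 days later. Early mice came off it at 21 days and were killed at 35 days, after 14 days. Control mice stayed on doxycycline and were killed at 35 days. The protocol describes the controls as littermates with a single transgene, whereas their strain label is that of the induced mice, so a difference in genotype cannot be told apart from induction. Early and control mice were of equal age. Late mice were older than both other groups, so age and induction cannot be told apart in any comparison with them. The promoter that drives the transgene is not given in the sources used here, and nothing says whether samples of a group came from separate litters or cages.

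In muscle, myostatin and the activins restrain growth. They bind the type II receptors ACVR2A and ACVR2B, which recruit type I receptors such as ALK4, the product of Acvr1b, and these phosphorylate SMAD2 and SMAD3. BMPs act through other type I receptors on SMAD1, SMAD5 and SMAD9, and this branch favours muscle mass. Both branches share ACVR2B and SMAD4. BMP signalling switches on the Id genes, whose proteins block the binding of myogenic factors to DNA, and Smad6, while Smad7 is induced by both branches; the SMAD6 and SMAD7 proteins inhibit the receptors that induced them.

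The promoters of 3 members are shown because their genes had the widest differences between groups (Acvr1b and Bmp6) or encode the type II partner of Acvr1b (Acvr2b). Each window runs from 250 bases before to 50 bases after the gene's start, from RefSeq on GRCm38.p6, and is written in the direction of transcription. Capitals mark CAGAC, the box bound by SMAD3 and SMAD4 (GTCTG on the other strand), or GGCGCC, a GC-rich element bound by SMAD1 and SMAD5.
Acvr1b promoter, chr15:101173822-101174121 (+ strand): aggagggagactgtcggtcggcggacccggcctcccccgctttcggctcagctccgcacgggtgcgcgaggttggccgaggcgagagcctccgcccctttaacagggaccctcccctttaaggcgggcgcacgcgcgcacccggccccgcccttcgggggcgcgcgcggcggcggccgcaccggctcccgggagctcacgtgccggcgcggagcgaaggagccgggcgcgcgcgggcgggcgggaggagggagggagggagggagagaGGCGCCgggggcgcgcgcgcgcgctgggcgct
Acvr2b promoter, chr9:119401928-119402227 (+ strand): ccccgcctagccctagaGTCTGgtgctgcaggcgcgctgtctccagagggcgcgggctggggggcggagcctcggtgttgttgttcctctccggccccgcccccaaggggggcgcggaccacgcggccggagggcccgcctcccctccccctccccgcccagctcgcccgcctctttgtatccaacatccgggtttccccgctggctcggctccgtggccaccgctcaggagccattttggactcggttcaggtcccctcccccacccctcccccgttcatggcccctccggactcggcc
Bmp6 promoter, chr13:38345466-38345765 (+ strand): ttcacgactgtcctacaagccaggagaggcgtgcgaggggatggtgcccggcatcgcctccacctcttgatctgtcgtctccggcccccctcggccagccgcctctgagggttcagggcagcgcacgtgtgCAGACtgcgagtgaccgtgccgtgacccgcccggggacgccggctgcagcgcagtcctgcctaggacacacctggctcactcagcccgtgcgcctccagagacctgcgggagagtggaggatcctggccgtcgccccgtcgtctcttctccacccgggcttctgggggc

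Promoter windows were found for 7 of the 9 measured members, without Id1 and Smad7. On either strand CAGAC was present in 3 of the 7 (Acvr2b, Bmp6 and Id3), and 49.6% of all 32851 windows in the table hold it. GGCGCC was present in 2 of the 7 (Acvr1b and Id2), against 11.9% of all windows. In Acvr1b it begins at position 19, counted from 1 at the start, and the CAGAC box begins at position -233 in Acvr2b and at position -119 in Bmp6. These matches describe the letters of short windows and say nothing about binding. The 7 windows were 60% to 79.7% G or C, against a median of 52.7% over all windows.

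All values are log2 expression from GCRMA, so a difference of 1 is a factor of 2, and differences are given with the standard error (SE) of a limma fit of 3 group means. A gene was called where its adjusted p was under 0.05 after Benjamini-Hochberg adjustment over all genes tested. A probe set's level depends on its probes, so levels are compared between samples and never between genes. That the tissue was skeletal muscle was borne out by 10 of 10 fast muscle and sarcomere markers, whose control means lay between 14.28 and 15.94. These markers do not tell which muscle was sampled. H2-K1, a class I gene, was 14.20, 13.11 and 14.31 in late muscle, 14.67, 14.64 and 14.69 in early muscle and 10.88, 10.47 and 10.21 in control muscle. Early replicate 3 had the lowest mean correlation with its own group over the genes tested, 0.946, where the other arrays had 0.956 to 0.99. For some members and for counts of calls, results without it are given as well. In whole muscle, fewer cells of a type and less RNA per cell cannot be told apart.

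**Figure D1:**
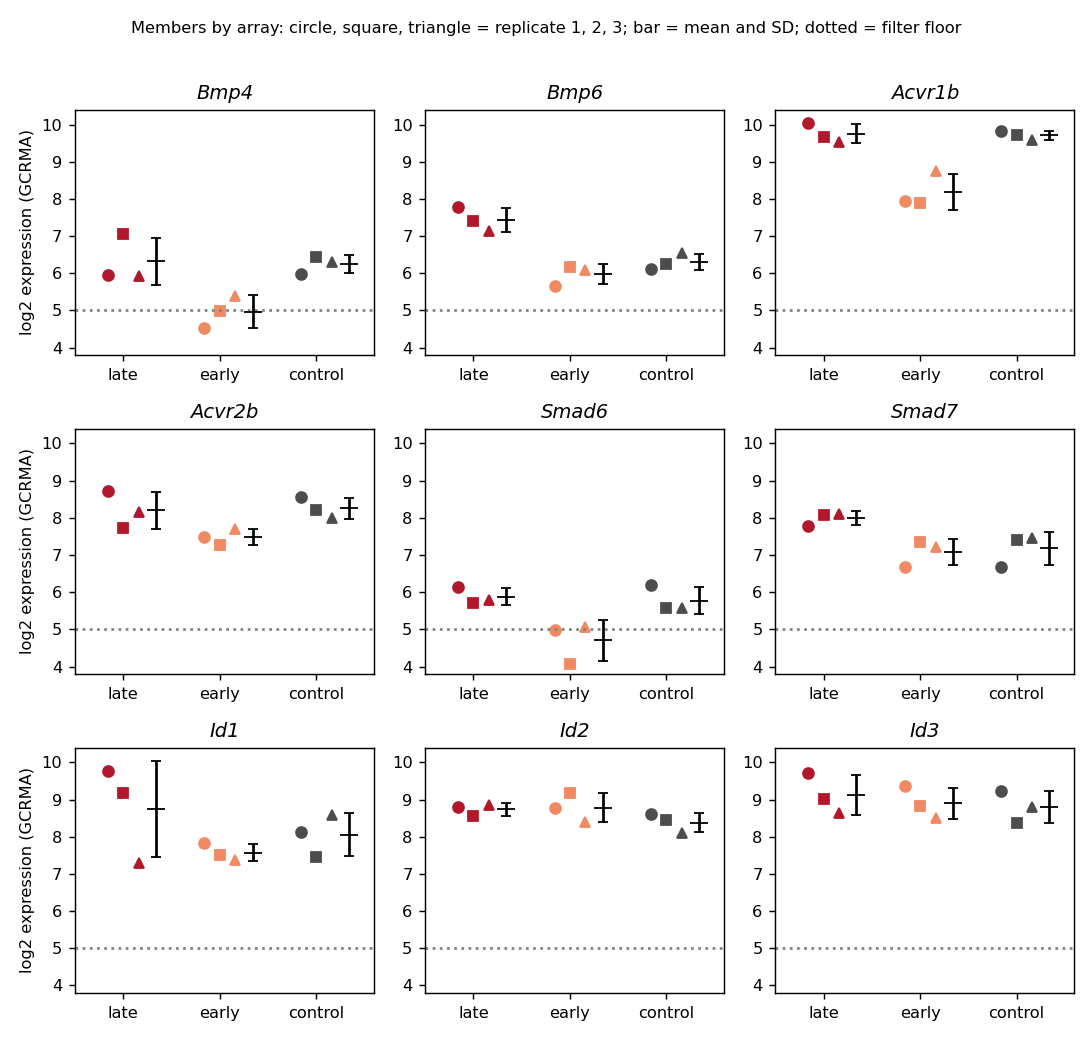
Log2 expression (vertical axis) of the 9 measured members in late, early and control muscle, 1 symbol per array, with the group mean and SD (n = 3) beside the symbols and the filter's floor of 5 as a dotted line. Early arrays lie below all control arrays for Bmp4, Acvr1b, Acvr2b and Smad6, and late arrays lie above all control arrays for Bmp6 and Smad7.

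The comparison of early with control mice asks how these genes stood after induction in young muscle, at equal age. Acvr1b, the type I activin receptor, was the 1 member called, and it was lower in early mice. Of the 9 members, 4 had all 3 early arrays below all 3 control arrays (Acvr1b, Bmp4, Smad6 and Acvr2b), where 13.9% of all genes did, and 0 had all early arrays above, where 9.63% of all genes did. The median difference of the 9 was -0.48, beside -0.03 over all genes. The fit called 1 member in a comparison where it called 1.19% of genes, and since the list was selected on these values nothing is read from that count.

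Acvr1b encodes ALK4, the type I receptor through which activins and myostatin signal. It stood at 7.93, 7.88 and 8.75 in early muscle, against 9.82, 9.71 and 9.59 in control muscle. Every early array lay below every control array, and early replicate 3 was the nearest to controls. The difference was -1.52 ± 0.24 (SE), a level 2.86-fold lower in early mice, and leaving out single arrays gave -1.80 (without early replicate 3) to -1.36 (without early replicate 2). Its call was lost without early replicate 1 or 2, without late replicate 2 and without any of the 3 controls, and with no filter, with the replicate block or with only early and control arrays in the fit. The value rests on 1 probe set, since the second probe set of Acvr1b stayed below the floor of 5 in all 9 arrays.

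Acvr2b encodes a type II receptor that binds myostatin, activins and some BMPs. It stood at 7.48, 7.27 and 7.70 in early muscle, against 8.55, 8.22 and 7.99 in control muscle. The groups did not overlap, but early replicate 3 and control replicate 3 lay close together. The difference was -0.77 ± 0.26, and the gene was not called with equal weights. With array weights it was called (-0.85), in a setting that called 3335 of all genes. Its 2 other probe sets were below the floor in all arrays.

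Bmp4, a BMP ligand, stood at 4.52, 4.98 and 5.40 in early muscle, against 5.97, 6.45 and 6.30 in control muscle. Again the groups did not overlap. The difference was -1.27 ± 0.33, and -1.24 when the early mean, which lay under the floor, was set to 5. The fit did not call it with all arrays at equal weights. It called it without early replicate 3 (-1.49) and with array weights (-1.38). Bmp6, another BMP ligand, known in the liver as the signal for hepcidin, stood at 5.66, 6.18 and 6.10 in early muscle, against 6.12, 6.25 and 6.55 in control muscle, and these overlap.

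Smad6, an inhibitor that acts mainly on BMP receptors, stood at 4.98, 4.07 and 5.07 in early muscle, against 6.20, 5.56 and 5.56 in control muscle. Every early array lay below every control array. The difference was -1.07 ± 0.29, or -0.78 counted from the floor, under which its early mean of 4.71 lay. It was called without early replicate 3 (-1.25) and with array weights (-1.39), and not with all arrays at equal weights. Smad7, which inhibits TGF-beta, activin and BMP receptors, overlapped between early muscle (6.67, 7.35 and 7.22) and control muscle (6.67, 7.41 and 7.46). On its second probe set, which is free of the shared-sequence suffix of the first, the difference had the other sign, 0.10 against -0.10, and both are within the spread.

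The Id genes did not separate early from control mice. Id1 stood at 7.83, 7.51 and 7.38 in early muscle, against 8.13, 7.45 and 8.59 in control muscle (-0.48 ± 0.57). Id2 stood at 8.76, 9.18 and 8.41 in early muscle, against 8.60, 8.46 and 8.09 in control muscle (0.40 ± 0.22). Id3 stood at 9.35, 8.82 and 8.51 in early muscle, against 9.24, 8.36 and 8.79 in control muscle (0.10 ± 0.34). None of the 3 was called with equal weights, and Id2 was called with array weights (0.75). Without early replicate 3 the Id2 difference was 0.59, with the 2 remaining early arrays above all controls, and without early replicate 2 it was 0.20. Leaving out single arrays gave -0.78 (without control replicate 2) to -0.22 (without control replicate 3) for Id1. The sign of the Id3 difference turned without early replicate 1 (-0.13) or without control replicate 2 (-0.12).

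The comparison of late with control mice asks the same of older muscle and holds 15 days of age as well. No member was called, and 7 of the 9 overlapped with controls, Acvr1b, Acvr2b, Bmp4 and Smad6 among them. Of the 9 members, 2 had all late arrays above all control arrays (Bmp6 and Smad7), where 16% of all genes did, and 0 had all late arrays below, where 14.9% of all genes did. With 9 members, 2 is near the share of all genes and is no result about them. The median difference was 0.32, beside 0.01 over all genes. The fit called 0 of the 9, with limma's adjusted p over all genes, in a comparison where it called 0.206% of genes. There 1673 genes had an unadjusted p under 0.05. With array weights it called 2 of the 9, beside 1037 of all 9697 genes. The comparison uses the same 3 controls as that of early mice.

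Bmp6 stood at 7.77, 7.40 and 7.14 in late muscle, against 6.12, 6.25 and 6.55 in control muscle. Each late array exceeded the highest control. The difference was 1.13 ± 0.22, a level 2.19-fold higher in late mice, and it ranged from 0.97 to 1.28 on leaving out single arrays. Smad7 stood at 7.78, 8.09 and 8.11 in late muscle, against 6.67, 7.41 and 7.46 in control muscle, a difference of 0.81 ± 0.26. On its second probe set it stood at 7.04, 6.79 and 6.34 in late muscle, against 5.27, 5.44 and 5.85 in control muscle, a difference of 1.20. The groups were thus separate on both probe sets, with sizes that differ.

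The receptors and the other BMP genes overlapped with controls. Acvr1b stood at 10.03, 9.67 and 9.54 in late muscle, against 9.82, 9.71 and 9.59 in control muscle (0.04 ± 0.24). Acvr2b stood at 8.72, 7.73 and 8.15 in late muscle, against 8.55, 8.22 and 7.99 in control muscle (-0.06 ± 0.26). For both receptors the mean difference was under the SD of either group and its sign turned on leaving out single arrays. Bmp4 stood at 5.96, 7.06 and 5.94 in late muscle, against 5.97, 6.45 and 6.30 in control muscle, with late replicate 2 above the other arrays. Smad6 stood at 6.14, 5.71 and 5.79 in late muscle, against 6.20, 5.56 and 5.56 in control muscle. Neither Bmp4 (0.08 ± 0.33) nor Smad6 (0.10 ± 0.29) differed by more than the spread between arrays.

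Id1 was uneven among late mice. It stood at 9.76, 9.18 and 7.30 in late muscle, against 8.13, 7.45 and 8.59 in control muscle. Late replicates 1 and 2 lay above all controls, and late replicate 3 below all of them. The difference was 0.69 ± 0.57 with all arrays, 1.41 without late replicate 3, 0.18 without late replicate 1, 0.47 without late replicate 2 and 0.39 without control replicate 2. The slow fibre markers moved with the same arrays: the median of all 8 lay 3.85 and 3.50 above the control mean in late replicates 1 and 2 and 0.95 below it (-0.95) in late replicate 3. Their part in the Id1 values was not tested. The same list lay at 3.06, 0.26 and -3.15 in early replicates 1, 2 and 3, where Id1 stood at 7.83, 7.51 and 7.38. In control replicates 1, 2 and 3 the list lay at -0.08, -1.14 and 1.23, where Id1 stood at 8.13, 7.45 and 8.59. Myh7, the slow myosin heavy chain, was at 13.37, 12.28 and 5.63 in late muscle, 10.96, 2.78 and 2.79 in early muscle and 7.10, 2.81 and 9.55 in control muscle. Id2 (0.35 ± 0.22) and Id3 (0.32 ± 0.34) overlapped between late and control mice.

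**Figure D2:**
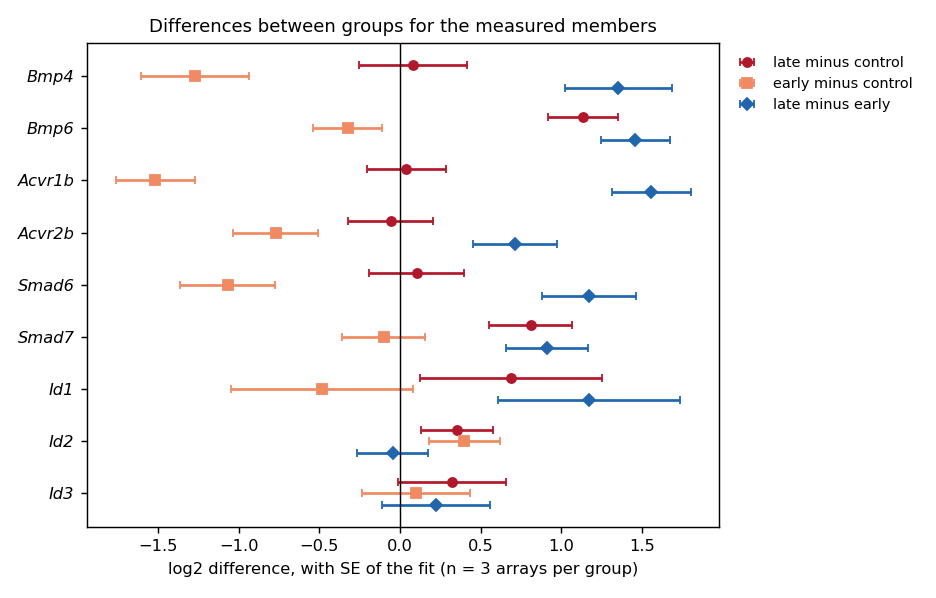
Log2 differences (horizontal axis) of the 9 measured members between late and control, early and control, and late and early muscle, each with the SE of the fit (n = 3 arrays per group). Acvr1b, Bmp4 and Smad6 are negative in early mice and near 0 in late mice, while Bmp6 and Smad7 are positive in late mice.

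The direct comparison of late with early mice sets induction at the older age against induction at the younger, on the same arrays as above. Of the 9 members, 6 had all late arrays above all early arrays (Acvr1b, Bmp6, Bmp4, Smad6, Smad7 and Acvr2b), where 18.3% of all genes did, and 0 lay wholly below, where 13.7% of all genes did. The median difference was 1.17, beside 0.03 over all genes. The fit called 4 of the 9, Acvr1b, Bmp6, Bmp4 and Smad6, in a comparison where it called 11.5% of genes, and as before nothing is read from a count over genes selected on these values. The differences were 1.56 ± 0.24 for Acvr1b, 1.46 ± 0.22 for Bmp6, 1.35 ± 0.33 for Bmp4 and 1.17 ± 0.29 for Smad6, or 1.32 for Bmp4 and 0.88 for Smad6 counted from the floor. Acvr1b and Bmp6 were called on leaving out any 1 of the 9 arrays, which does not undo the selection on these values and adds no support. When only late and early arrays were fitted, 0 members were called, beside 38 of all genes. The call count was 2 without late replicate 1 or 2, without early replicate 1 or 2 and without control replicate 2 or 3. Of all genes, 294 were called without late replicate 1 and 143 without late replicate 2. Smad7 (0.91 ± 0.26) was called in addition with replicate number as a block, which left the other 4 called. It was also called on its second probe set (1.10), when shared probe sets were left out. Array weights called 6 members, Smad7 and Acvr2b among them, beside 3534 of all genes. Acvr2b differed by 0.71 ± 0.26, or by 0.45 without late replicate 1. Id1 differed by 1.17 ± 0.57, by 0.66 without late replicate 1 and by 1.89 without late replicate 3, where it was called. Id2 (-0.05 ± 0.22) and Id3 (0.22 ± 0.34) did not differ beyond the spread.

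The genes whose values over the 9 arrays lay nearest to those of Acvr1b, each centred on its own mean, were Pitpnc1, a lipid transfer protein, Enox2, an oxidase of the cell surface, and Pigl, an enzyme of glycolipid anchor synthesis. The root mean square difference from Acvr1b was 0.24, 0.26 and 0.27 on the log2 scale, in that order. Pitpnc1 averaged 9.81 in late, 8.63 in early and 9.81 in control muscle. For Id1 the nearest were Coq10b, which binds coenzyme Q (0.22), Klf4, a transcription factor (0.35), and Rbp7, which binds retinol (0.36). Klf4 averaged 10.31 in late, 8.69 in early and 9.45 in control muscle.

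The rest of the pathway was read from a list of 102 genes that are not members, in 5 groups by role, of which 95 had a probe set and 65 passed the filter. This list too was drawn up with earlier results of these data known, so its counts are a description and no independent support. In early against control mice limma called 0 of the 65 at an adjusted p under 0.05, while 12 had an unadjusted p under 0.05, beside 1797 of all 9697 genes, and array weights gave 22 calls, beside 3335 of all genes. Both counts are the list's proportionate part of the totals. The median was -0.14, beside -0.03 over all genes. Without early replicate 3 the count was 12, beside 1756 of all genes, again about the list's proportionate part. In late against control mice 1 of 65 was called, Myog, beside 20 of all genes. In late against early mice 12 of 65 rose and 1 fell, 20% of the list beside 11.5% of all genes. A rise or fall in that comparison is against early mice, not against controls. That count was 5, 2 and 2 without control replicates 1, 2 and 3, and 1, 1 and 22 without early replicates 1, 2 and 3. The 22 stood beside 2959 of all genes. The list's count was 3, 2 and 8 without late replicates 1, 2 and 3, beside 294, 143 and 727 of all genes. It was 12 with replicate number as a block, beside 1114 of all genes. It was 0 when only late and early arrays were fitted, beside 38 of all genes.

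**Figure D3:**
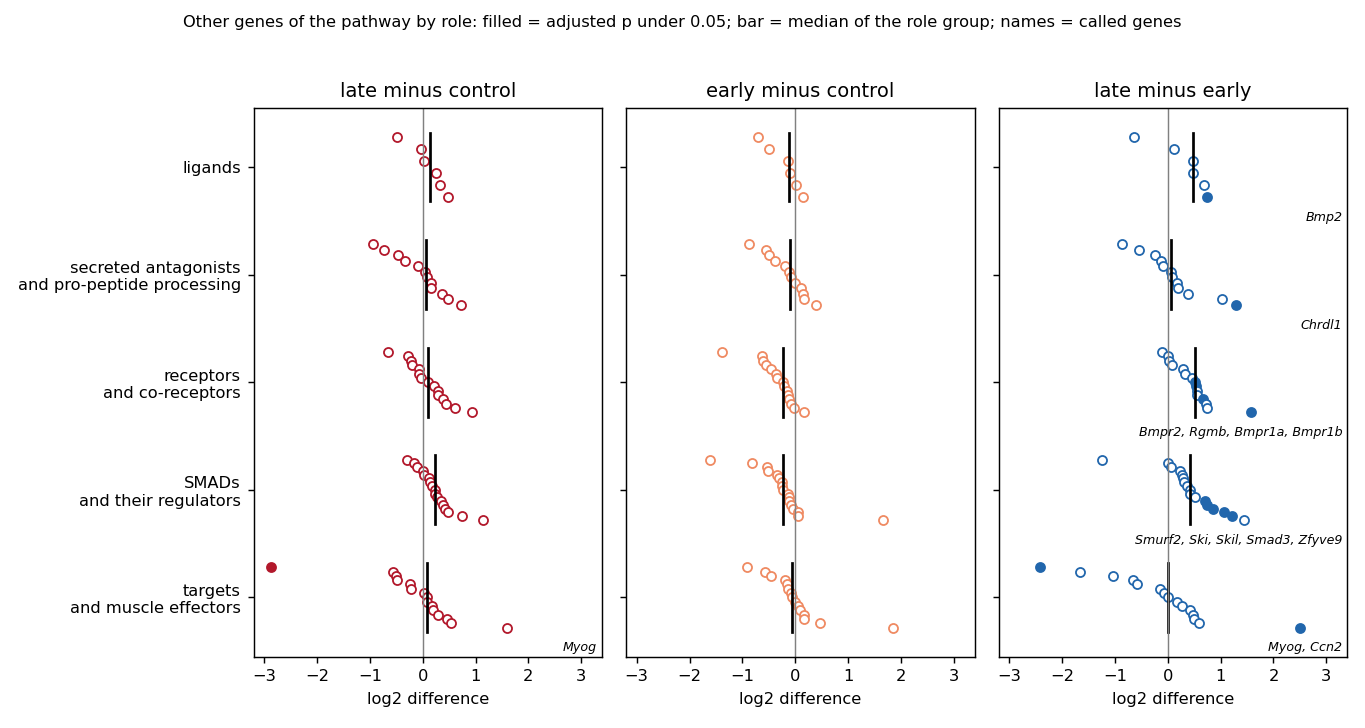
Log2 differences (horizontal axis) of the 65 tested pathway genes that are not members, by role, in the 3 comparisons; filled symbols and names are genes with an adjusted p under 0.05 and black bars are role medians. In the comparison of late with early mice 12 called genes lie above 0 and Myog below, while Myog is the sole called gene against controls.

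Among ligands, 6 of 21 listed genes passed the filter and 1 rose in late against early mice. This was Bmp2, a ligand close to Bmp4, at 6.09, 5.96 and 5.91 in late muscle, against 4.97, 5.07 and 5.71 in early muscle (0.74 ± 0.20, adjusted p = 0.0457). In early against control mice Bmp5 (-0.71 ± 0.24) and Bmp2 (-0.49 ± 0.20) had the smallest p of the group and neither passed (adjusted p = 0.184 and 0.237). In late against control mice these were Tgfb3 (0.48 ± 0.25, adjusted p = 0.353) and Bmp2 (0.25 ± 0.20, adjusted p = 0.547). Bmp5 differed by 0.69 ± 0.24 between late and early mice without passing (adjusted p = 0.086).

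Among secreted antagonists and processing factors, 12 of 23 were tested and 1 rose in late against early mice. Chrdl1, a secreted BMP antagonist, was 6.85, 6.04 and 5.89 in late muscle, against 4.80, 4.72 and 5.41 in early muscle (1.28 ± 0.27, adjusted p = 0.0271). The groups did not overlap, and control muscle lay between them at 5.54 ± 0.09 (SD, n = 3). Fst, follistatin, which traps myostatin and activins, was 7.61, 7.58 and 8.87 in late muscle, against 9.14, 9.19 and 8.56 in control muscle (-0.94 ± 0.35, adjusted p = 0.238). Late replicates 1 and 2 were low, late replicate 3 was not, and the difference did not pass. Ltbp3, which holds latent TGF-beta in the matrix, differed from controls by -0.46 ± 0.17 in late mice and by -0.38 ± 0.17 in early mice, and passed in neither (adjusted p = 0.236 and 0.281). Sostdc1, a BMP antagonist near the floor, differed between late and early mice by 1.03 ± 0.32 (adjusted p = 0.0683) and by 0 counted from the floor, and between early and control mice by -0.87 ± 0.32 (adjusted p = 0.216).

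Receptors and co-receptors held 15 tested genes of 17, and 4 rose in late against early mice. Bmpr1b, a type I BMP receptor, was 7.21, 5.91 and 6.07 in late muscle, against 4.87, 4.59 and 5.02 in early muscle (1.57 ± 0.31, adjusted p = 0.0232), or 1.40 counted from the floor. Bmpr1a, another type I BMP receptor, was 11.73, 11.63 and 11.67 in late muscle, against 10.71, 10.91 and 11.39 in early muscle (0.67 ± 0.18, adjusted p = 0.0455). Bmpr2, the type II BMP receptor (0.51 ± 0.12, adjusted p = 0.0328), and Rgmb, a BMP co-receptor (0.53 ± 0.14, adjusted p = 0.0448), rose by less. In early against control mice 0 of the 15 passed, and their median was -0.24, beside -0.03 over all genes. All 15 were read from the same arrays, so their values are not independent. Bmpr1a differed by -0.56 ± 0.18 (adjusted p = 0.17). The lowest value was that of Rgma, another BMP co-receptor, at 5.67, 5.56 and 6.64 in early muscle, against 7.42, 7.25 and 7.35 in control muscle (-1.38 ± 0.27, adjusted p = 0.0554). Tgfbr1, the type I receptor of TGF-beta, had the smallest p of the group in late against control mice (0.62 ± 0.16, adjusted p = 0.126), followed by Bmpr1b (0.93 ± 0.31, adjusted p = 0.198).

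SMADs and their regulators held 17 tested genes of 19, and 5 rose in late against early mice. Smad3, the transducer downstream of ALK4, was 9.80, 10.60 and 10.23 in late muscle, against 8.78, 9.02 and 9.65 in early muscle (1.06 ± 0.27, adjusted p = 0.0412). Its control arrays stood at 9.86, 9.85 and 10.20. Late arrays overlapped with these (0.24 ± 0.27), and all early arrays lay below them (-0.82 ± 0.27). Ski (0.75 ± 0.16, adjusted p = 0.0298) and Skil (0.85 ± 0.20, adjusted p = 0.0353) encode repressors of SMAD-driven transcription. Against controls Ski differed by -0.51 ± 0.16 in early mice and by 0.24 ± 0.16 in late mice. Smurf2, a ubiquitin ligase for receptors and SMADs, rose by 0.71 ± 0.15 (adjusted p = 0.0251), and Zfyve9, which anchors SMADs at receptors, by 1.22 ± 0.30 (adjusted p = 0.0389). Early mice lay closer to controls for Skil (-0.11 ± 0.20), Smurf2 (-0.24 ± 0.15) and Zfyve9 (-0.09 ± 0.30). In early against control mice Tgif1, a SMAD corepressor, was 7.65, 7.48 and 5.57 in early muscle, against 5.21, 5.25 and 5.25 in control muscle (1.66 ± 0.48, adjusted p = 0.15). Early replicates 1 and 2 were high and early replicate 3 was near controls. Nedd4l, a ubiquitin ligase, showed the same split with the other sign, at 6.67, 6.91 and 8.77 in early muscle, against 9.18, 9.22 and 8.77 in control muscle (-1.61 ± 0.48, adjusted p = 0.157). In late against control mice Zfyve9 (1.13 ± 0.30, adjusted p = 0.136) and Skil (0.74 ± 0.20, adjusted p = 0.142) had the smallest p of the group and did not pass.

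Targets and muscle effectors held 15 tested genes of 22. Ccn2, connective tissue growth factor, a TGF-beta target, rose in late against early mice at 12.25, 10.89 and 9.26 in late muscle, against 8.53, 8.29 and 8.08 in early muscle (2.50 ± 0.68, adjusted p = 0.048). The late arrays spread widely, with late replicate 3 the lowest, as in Id1. Myog, myogenin, a driver of muscle differentiation, fell in late mice, at 5.55, 6.78 and 5.80 in late muscle, against 9.21, 8.31 and 7.84 in early muscle (-2.41 ± 0.39, adjusted p = 0.0131). Against controls, at 8.91 ± 0.06 (SD, n = 3), it fell too (-2.86 ± 0.39, adjusted p = 0.0359). That call was the list's only one in late against control mice with all arrays at equal weights. It was lost with no filter or the replicate block, and without late replicate 1 or 3, early replicate 2 or any control. Fbxo30, a ubiquitin ligase that BMP signalling is known to repress, was 8.61, 8.99 and 8.21 in late muscle, against a control mean of 8.14 ± 0.16 (SD, n = 3). The difference was 0.47 ± 0.20 and did not pass (adjusted p = 0.275). Cdkn1a, a cell cycle inhibitor, was 12.52, 11.32 and 8.98 in early muscle, against 8.89, 9.26 and 9.13 in control muscle (1.85 ± 0.80, adjusted p = 0.261), again with early replicates 1 and 2 apart from early replicate 3. Tgfbi, an adhesion protein of the matrix induced by TGF-beta, differed by -0.57 ± 0.23 in early against control mice (adjusted p = 0.236).

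Markers of other cell types also shifted between arrays. Smad6 and the Id genes are known to be expressed in endothelium. All 12 endothelial markers passed the filter, 0 of 12 were called against controls, and the log2 of their summed level was 12.05 to 12.28 in late, 11.81 to 12.15 in early and 12.21 to 12.46 in control muscle. In late against early mice 1 marker was called in each of 4 lists: Vwf of endothelium (1.04), Myh11 of smooth muscle (1.28), Vcam1 of satellite cells (0.97) and C1qa of macrophages (-1.70). The fit called 11.5% of all genes in that comparison. Some uncalled markers went the other way, such as Cldn5 of endothelium (-1.10), Cspg4 of pericytes (-0.80) and Sdc4 of satellite cells (-1.50). The 7 tested smooth muscle and pericyte markers had a median difference of 0.39 between late and early mice and lay at -0.49, -0.26 and -0.27 from the control mean in early replicates 1, 2 and 3. The log2 summed level of all 8 was 13.77 to 14.03 in late, 13.34 to 13.75 in early and 13.78 to 13.99 in control muscle. The median of 6 satellite cell markers lay at -0.10, -0.02 and -0.25 from the control mean in late replicates 1, 2 and 3, and at -0.99, -0.77 and -0.35 in early replicates 1, 2 and 3. The log2 summed level of those 6 was 10.28 to 10.49 in late, 9.90 to 10.54 in early and 10.44 to 10.64 in control muscle. The 5 tested adipocyte markers lay at -0.74, 0.21 and -1.19 in the late replicates and at -0.88, -1.39 and -1.32 in the early ones, with 0 called. The 8 tested macrophage markers lay at -0.87, 0.05 and -0.06 in the late replicates and at 1.08, 0.38 and -0.22 in the early ones. The log2 summed level of macrophage markers was 11.71 to 12.33 in late muscle, 14.14, 13.46 and 12.12 in early replicates 1, 2 and 3, and 12.25 to 12.59 in control muscle. Cd68 (12.06, 11.17 and 6.23) and Lgals3 (12.81, 11.69 and 7.45), chosen after their values were seen, set early replicates 1 and 2 apart from early replicate 3, as Tgif1, Nedd4l and Cdkn1a did. Cd14 (7.19, 6.71 and 4.82) did so to a lesser degree. Adgre1 (7.87, 8.16 and 7.45), C1qb (11.28, 11.33 and 10.84) and Mrc1 (9.56, 9.82 and 9.73) of the same list showed little or no such split. Fibroblast markers lay at -0.95 in late replicate 1 and between -0.28 and -0.04 in the other induced arrays. Of the markers, Cnn1 of smooth muscle and Itgam of macrophages were below the floor in all arrays. The part of these cell types in the values of the members and the pathway genes was not tested.

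**Figure D4:**
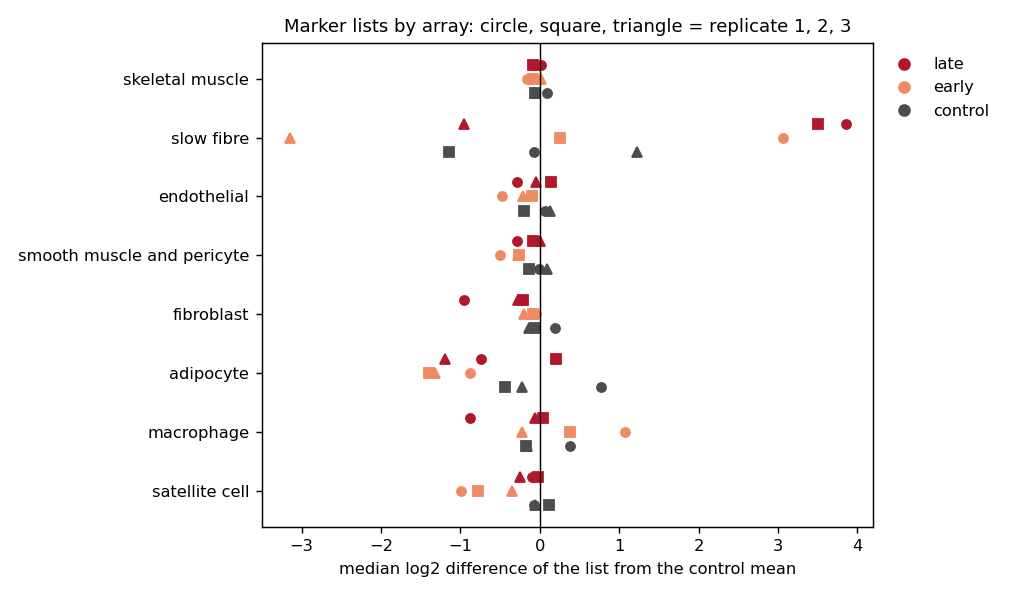
Median log2 difference of each marker list from the control mean (horizontal axis), 1 symbol per array, for late, early and control muscle. Slow fibre markers reach 3.85 in late replicate 1 and -3.15 in early replicate 3, while skeletal muscle markers stay near 0 in all arrays.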

How the data were processed

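Total RNA of 9 muscles was hybridised to Affymetrix arrays, and the deposited log2 values were made by the authors with GCRMA, per the submitters' processing notes. No version and no batch is stated there. GCRMA compresses dim values and equalises arrays, which would hide any shift shared by all genes. The number of arrays, 3 per group, limits the precision.

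All 9 value columns were used. Of 45101 probe sets, 34945 named 1 gene in the platform annotation, after 64 control probe sets were left out. Those above a log2 value of 5 in at least 3 arrays were kept (16048), and the probe set with the highest mean was taken per gene (9697 genes). One model of 3 group means was fitted with limma 3.58.1 in R 4.3.3 (lmFit and eBayes, 6 residual degrees of freedom), with Benjamini-Hochberg adjustment, and was tested on simulated data. The p values reflect how far these samples spread, which may be technical.

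The members and the gene lists were chosen with earlier results of these data known. Pathway genes named are those called in any comparison and the 2 with the smallest p per role group and comparison. Alternatives changed the filter, the probe sets, the centring, the arrays fitted and their weights, and left out each array.

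Deviations from the group means of same-numbered late and early arrays had correlations across genes of 0.168, 0.201 and 0.16. Differently numbered arrays were not compared, and the labels do not state a common source. The main fit left arrays unpaired, and replicate number entered as a block in an alternative only. The correlations were 0.35, 0.11 and -0.0391 between early and control arrays. Between late and control arrays they were 0.0847, -0.165 and -0.11. Promoter windows are RefSeq's on GRCm38.p6.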

Additional observations from a re-analysis of the deposited data

Results flagged for a closer look

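Late and early mice, set against the same controls, lay apart for 4 members, which were selected on these values, so that no test bears on them: Acvr1b (1.56), Bmp6 (1.46), Bmp4 (1.35) and Smad6 (1.17 on the log2 scale, late minus early). By the fit's test they also differed for 13 genes of the pathway list, which was likewise drawn up with earlier results known. These are Bmpr1b (1.57), Chrdl1 (1.28), Zfyve9 (1.22), Smad3 (1.06), Skil (0.85), Ski (0.75), Bmp2 (0.74), Smurf2 (0.71), Bmpr1a (0.67), Rgmb (0.53), Bmpr2 (0.51), Ccn2 (2.50) and Myog (-2.41). For 9 of these 13, and for Bmp6, every late array lay on one side of the control mean and every early array on the other. Nbl1, a secreted BMP antagonist (0.20), and Smurf1, a ubiquitin ligase (0.52), showed that pattern too, but their differences did not pass the test. How many of all genes show the pattern was not counted. The 13 were picked by their difference between late and early mice, which favours it. Nothing is therefore read from the 9 of 13.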

How the results depend on the processing

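Of 432 differences of members under 16 alternatives, 429 moved by less than the spread between replicates. The other 3 were Smad7 in late against control mice on its second probe set (1.20) and Id2 with array weights (0.75 in early against control, -0.38 in late against early mice). Most of the 429 could not have come out otherwise. Leaving out 1 of 3 arrays cannot move a difference by more than that spread. Alternatives that kept a member's arrays, weights and probe set left its difference unchanged. The count is therefore no evidence of stability. Signs turned in 19 of the 432, all for differences that were not called with all arrays. Counts of calls depended strongly on the setting, and the cause was not tested. The numbers of genes called were 115 in early against control, 20 in late against control and 1119 in late against early mice. With no filter they were 56, 20 and 584, with members called 0 in early against control and 2 in late against early mice, and 0 and 7 pathway genes in late against control and late against early mice. With each probe set tested on its own 1803 were called in late against early mice, and without shared probe sets 12 in late against control mice. With only the groups compared, where fewer arrays set the spread, the numbers were 61, 12 and 38, with 0 members in early against control mice and 0 members and 0 pathway genes in late against early mice. Array weights, whose estimation stopped before convergence, gave 3335, 1037 and 3534 genes, 5 members in early and 2 in late against control mice, and 22, 10 and 30 pathway genes. The replicate block gave 62 genes and 0 members in early against control mice, 5 genes and 0 pathway genes in late against control mice, and 1114 genes in late against early mice.

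Leaving out single arrays gave 6 (without control replicate 2) to 1756 genes (without early replicate 3) in early against control mice. It gave 5 (without control replicate 1 or 2) to 59 (without early replicate 3) in late against control mice and 143 (without late replicate 2) to 2959 (without early replicate 3) in late against early mice. Members called were 0 to 3 in early against control and 2 to 5 in late against early mice. Pathway genes called were 0 to 12, 0 to 1 and 1 to 22 in the 3 comparisons. Members whose arrays did not overlap in late against control mice were 2 to 4. Signals under the floor of 5, as for Bmp4 and Smad6 in early mice, limit the size of a fall that can be read.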
